A study of Caenorhabditis elegans with 15 samples.

Results

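In RNA-seq data, 6 libraries of batches 1 and 4 were set against 6 libraries of batches 3 and 5 from a study of the plant compound ursolic acid (UA) in the nematode Caenorhabditis elegans. These 12 of the 15 libraries in the series were selected on measured expression, because batches 1 and 4 stood at one end and batches 3 and 5 at the other end of the main axis of spread. Differences between these sets of batches are therefore given as a description with no test, and a difference counts as called only by a stated rule. Batch 2, with 3 libraries, lay between them and is described where it adds a value.

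All libraries came from wild-type (N2) larvae. Larvae synchronized at L1 were fed Escherichia coli OP50 for 34 h to reach the third larval stage. They were then kept for 12 h with 50 µM UA, with its solvent DMSO, or with no addition (untreated), and collected as L4 larvae. By this protocol every group had the same nominal age, and the same food up to the exposure. The food during the 12 h of exposure is not stated in the RNA-seq methods. The age actually reached in each batch is not given. Each of the 5 batches gave 1 library of each treatment, so each set held 2 UA, 2 DMSO and 2 untreated libraries. The labels name the batch of each library but do not say how the batches differed, and the 3 libraries of a batch share that batch: the comparison is 2 batches against 2. RNA came from whole animals, so fewer cells of a type and less RNA per cell cannot be told apart.

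In the hermaphrodite gonad, germ cells become sperm during L4 and the germline then switches to oocytes, which store maternal mRNAs and eggshell components. Around the same time the intestine begins to transcribe the vitellogenin genes, whose yolk is taken up by oocytes. Each larval stage also ends with a moult, for which the epidermis makes a new cuticle of collagens: those of the annular furrows are transcribed early in a moult cycle, and a separate set is made for the adult cuticle.

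The table held counts for 20541 genes, of which 14037 passed the filter on low counts. Total counts ran between 22353474 and 27474535 in batches 1 and 4, between 12485842 and 24018538 in batches 3 and 5, and between 20644549 and 22148505 in batch 2. The lowest total belonged to the UA library of batch 5, and counts were also compared without it and after thinning all libraries to its depth, which gave 629 higher and 44 lower genes by the rule below. Mitochondrial transcripts took 0.391% to 0.420% of counts in batches 1 and 4, 0.376% to 0.509% in batches 3 and 5, and 0.393% to 0.426% in batch 2. Of the spread in log2 CPM (CPM is a gene's count relative to its library's total, scaled with TMM factors) over the 15 libraries, batch accounted for 77.9%, treatment for 6.66% and the remainder for 15.4%.

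The first principal component of the 15 libraries held 56.9% of the variance. The libraries of batch 1 had a mean score of 29.1 and those of batch 4 a mean of 24.4, against -23.4 for batch 3 and -38.2 for batch 5, with batch 2 at 8.13. Within every batch the 3 treatments lay closer to each other than the sets lay to each other. The second component held 12.5% and had batch 3 at -18.7 and batch 5 at 16.7, so the batches of the lower set differed from each other along it.

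**Figure D1:**
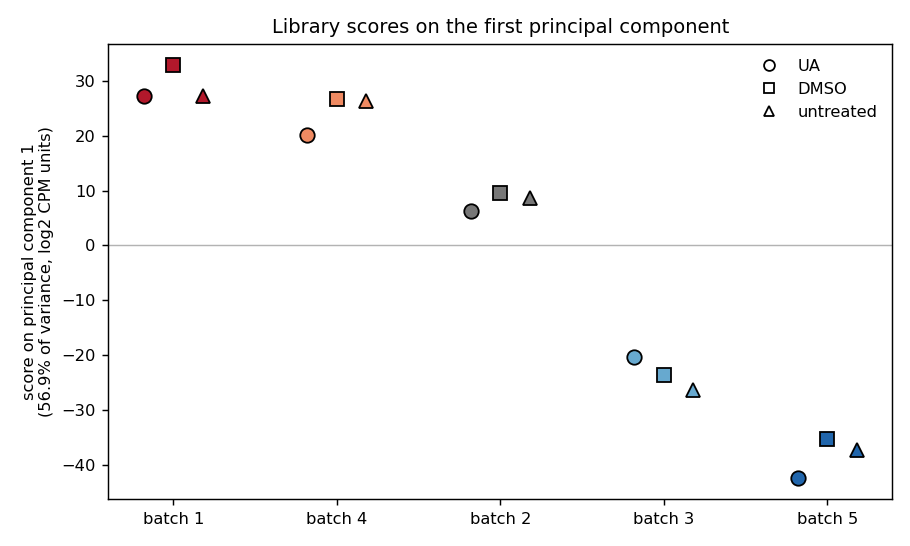
Score of each of the 15 libraries on the first principal component of log2 CPM (y axis, log2 CPM units), by batch (x axis), with symbols for treatment. Libraries of batches 1 and 4 score between 20.03 and 32.9, those of batches 3 and 5 between -42.4 and -20.4, and the 3 libraries of batch 2 fall between.

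A gene was called higher or lower when all 6 libraries of one set lay beyond all 6 of the other in CPM and the mean log2 CPM differed by at least 1, a 2-fold difference. By this rule 644 genes (4.59% of those tested) were higher in batches 1 and 4 and 47 genes (0.335%) were lower. Without the fold limit, 2232 genes (15.9%) lay above and 1180 genes (8.41%) lay below, and the median difference over all tested genes was 0.01. The sets were chosen on these same values, so the shares are given as background for the gene groups below and not as a result. All 691 called genes were annotated as protein coding. The study's methods describe the 14037 genes kept by the same filter as protein coding, so no other outcome was possible. The higher genes had a median difference of 1.27 on the log2 scale and reached 4.25, with 112 at least 4-fold and 38 at least 8-fold higher. The lower genes had a median of -1.05 and went no further than -1.71. Of the higher genes, 79 were under 1 CPM in all 6 libraries of batches 3 and 5 and passed the filter only through the other libraries.

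Genes of sperm were higher in batches 1 and 4. Of 28 tested genes for the major sperm protein (msp), the cytoskeletal and signalling protein that makes up much of the sperm cytosol, all 28 lay above without overlap and 25 were called, with a median difference of 1.19. Summed over these genes, the libraries of batches 1 and 4 held 1292 to 1519.7 CPM, against 447 to 795 CPM in batches 3 and 5. The family therefore differed as a block, between 0.63 for msp-74 and 1.55 for msp-65. The lowest, median and highest libraries had 25.2, 28.9 and 32.8 CPM of msp-38 in batches 1 and 4, against 6.37, 10.7 and 13.4 CPM in batches 3 and 5 (log2 difference 1.48). Every library of batches 1 and 4 was above every library of batches 3 and 5, and the UA library of batch 5 was the lowest. Many msp genes are near-identical copies, and how reads matching several copies were counted is not given in the sources used here, so values of single msp genes are uncertain. The called msp genes lay on chromosome II (10 genes) and chromosome IV (15 genes).

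Other sperm genes differed less evenly. Of 29 tested members of small sperm-specific families (ssp, sss, nspb and nspd), 16 were called higher, with a median of 1.06. The largest difference was that of ssp-19, at 3.6, 3.97 and 5.09 CPM in batches 1 and 4, against 0.651, 1.05 and 1.67 CPM in batches 3 and 5 (log2 difference 1.83). Next came sss-1, at 70.0, 73.4 and 83.0 CPM in batches 1 and 4, against 19.6, 27.4 and 34.3 CPM in batches 3 and 5 (log2 difference 1.44). No nspb gene was called: nspb-6, for example, differed by -0.02. Among 31 tested genes needed for sperm development and function, 5 were called higher and 20 lay above without overlap, with a median of 0.74. The called genes included spe-11, whose sperm-supplied product acts in the fertilized egg (1.09), and spe-12, which acts when spermatids become motile (1.28). The threshold cut through this list: the transporter gene snf-10, at 1.01, was inside it and the sperm chromatin gene spch-3 (listed as T27A3.4), at 0.98, was outside.

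The sperm phosphatase gene gsp-3 had 69.0, 77.2 and 84.0 CPM in batches 1 and 4, against 30.8, 40.2 and 54 CPM in batches 3 and 5, a difference of 0.92 with no overlap. For spe-9, which encodes a sperm surface protein needed for fertilization, the sets overlapped, with 8.01, 8.78 and 9.88 CPM in batches 1 and 4 and 5.19, 7.04 and 8.37 CPM in batches 3 and 5. Batch 5 was the lowest of the 5 batches for both genes. The size of the sperm difference rested on batch 5: without it, 4 of 28 msp genes, 7 of 29 small-family genes and 0 of 31 spermatogenesis genes were called, and the msp median was 0.86. Leaving out batch 5 cannot make an msp gene overlap, because all 28 already lay above both batches. Regulators that set sperm or oocyte fate (fog, fem and tra genes, with cpb-1) had a median of -0.02 over 9 genes and no called member.

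Oocyte and eggshell genes were also higher in batches 1 and 4. Of 30 tested genes, 12 were called higher, none lower, and 27 lay above without overlap, with a median of 0.82. The largest difference was that of perm-2, which encodes a protein of the outer, vitelline layer of the eggshell, at 30.8, 37.7 and 45.8 CPM in batches 1 and 4, against 4.56, 6.43 and 7.68 CPM in batches 3 and 5 (log2 difference 2.56). Its partner perm-4 had 83.7, 99.2 and 125 CPM in batches 1 and 4, against 14.9, 21.5 and 26.4 CPM in batches 3 and 5 (log2 difference 2.28). Both genes were higher in every library of batches 1 and 4, highest in batch 1 and lowest in batch 5. The eggshell proteoglycan genes cpg-1, cpg-2 and cpg-3 differed by 1.46, 1.59 and 1.90, and the egg-surface receptor gene egg-1 by 1.46. A count on perm-2 could include reads of C44B12.6, which overlaps it on the opposite strand.

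The yolk receptor gene rme-2, through which oocytes take up vitellogenin, had 54.2, 61.1 and 66.7 CPM in batches 1 and 4, against 20.8, 23.7 and 34.4 CPM in batches 3 and 5 (log2 difference 1.25). The maturation regulator oma-1 differed less, with 36.7, 39.4 and 42.9 CPM in batches 1 and 4, against 23, 26 and 30.9 CPM in batches 3 and 5 (log2 difference 0.61, no overlap). Translational regulators of oocytes and early embryos were spread between these sizes, with puf-5 at 1.75, pos-1 at 1.35 and mex-6 at 1.13, while mex-3 (0.66) and oma-2 (0.78) were under the fold limit. The oocyte difference held without batch 5, with 10 of 30 genes called and a median of 0.62. None of 8 early embryonic genes, such as end-1 and pes-10, passed the filter, and none had more than 8 counts in any library.

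Genes of the proliferating and meiotic germline differed little. Of 36 tested genes, none was called and 10 lay above without overlap (15.9% of all tested genes did), with a median of 0.17. The largest differences were those of the germ granule helicase glh-2 (0.72) and of gld-1 (0.61), an RNA-binding regulator of meiotic entry and of oocyte mRNAs. In gld-1 the sets did not overlap, with 309.5, 323 and 333 CPM in batches 1 and 4, against 175, 213 and 249.7 CPM in batches 3 and 5. The stem cell regulators fbf-1 and fbf-2 differed by -0.02 and 0.02, and the meiotic axis genes him-3 and htp-3 by 0.14 and 0.06. Among 20 cell cycle and DNA replication genes none was called, with a median of 0.10.

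The yolk genes had the largest median of any list. Of the 6 vitellogenin genes 5 were called higher, the median difference was 2.38, and all 6 were highest in batch 1. In vit-2 the lowest, median and highest libraries had 294, 648 and 1176 CPM in batches 1 and 4, against 97.5, 108 and 148 CPM in batches 3 and 5. The span within batches 1 and 4 lay between the batches: vit-2 averaged 1006 CPM in batch 1 and 378 CPM in batch 4, which was near the 339 CPM of batch 2. The same order of batches held for vit-6, with 1424 CPM in batch 1, 527 CPM in batch 4, 458 CPM in batch 2, 203 CPM in batch 3 and 182 CPM in batch 5.

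The largest yolk difference was that of vit-5, on chromosome X from 3403471 to 3408603 (build WBcel235), at 14.8, 70.8 and 177 CPM in batches 1 and 4, against 0.640, 3.92 and 7.56 CPM in batches 3 and 5 (log2 difference 4.08). Its lowest library, at 0.640 CPM, was DMSO of batch 3. The genes vit-3 (2.39) and vit-4 (3.13) were called as well, and vit-3, vit-4 and vit-5 are close copies, so their counts are uncertain. The exception was vit-1, with 40.5, 53.4 and 80.5 CPM in batches 1 and 4 and 34.3, 57.2 and 63.3 CPM in batches 3 and 5, which overlapped. Leaving out any of the 4 batches kept the count at 5 of 6, and the median was 1.72 without batch 1.

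Known regulators of the vitellogenin genes did not share this size of difference. The homeobox gene ceh-60, which promotes their transcription, had 15.4, 16.5 and 18.6 CPM in batches 1 and 4, against 10.5, 13.5 and 14.4 CPM in batches 3 and 5 (log2 difference 0.37, no overlap). Its partner unc-62 was lower in batches 1 and 4 with no overlap (-0.18), as was mab-3 (-0.75), which represses these genes in males. For pqm-1 the sets overlapped, with 54.5, 57.9 and 67.3 CPM in batches 1 and 4 and 43.0, 61.4 and 73.6 CPM in batches 3 and 5. The acid ceramidase gene asah-1, which the study followed and which was added here after the values were seen, had 33.4, 44.0 and 51.7 CPM in batches 1 and 4 and 36, 42.4 and 53.3 CPM in batches 3 and 5, and the sets overlapped.

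**Figure D2:**
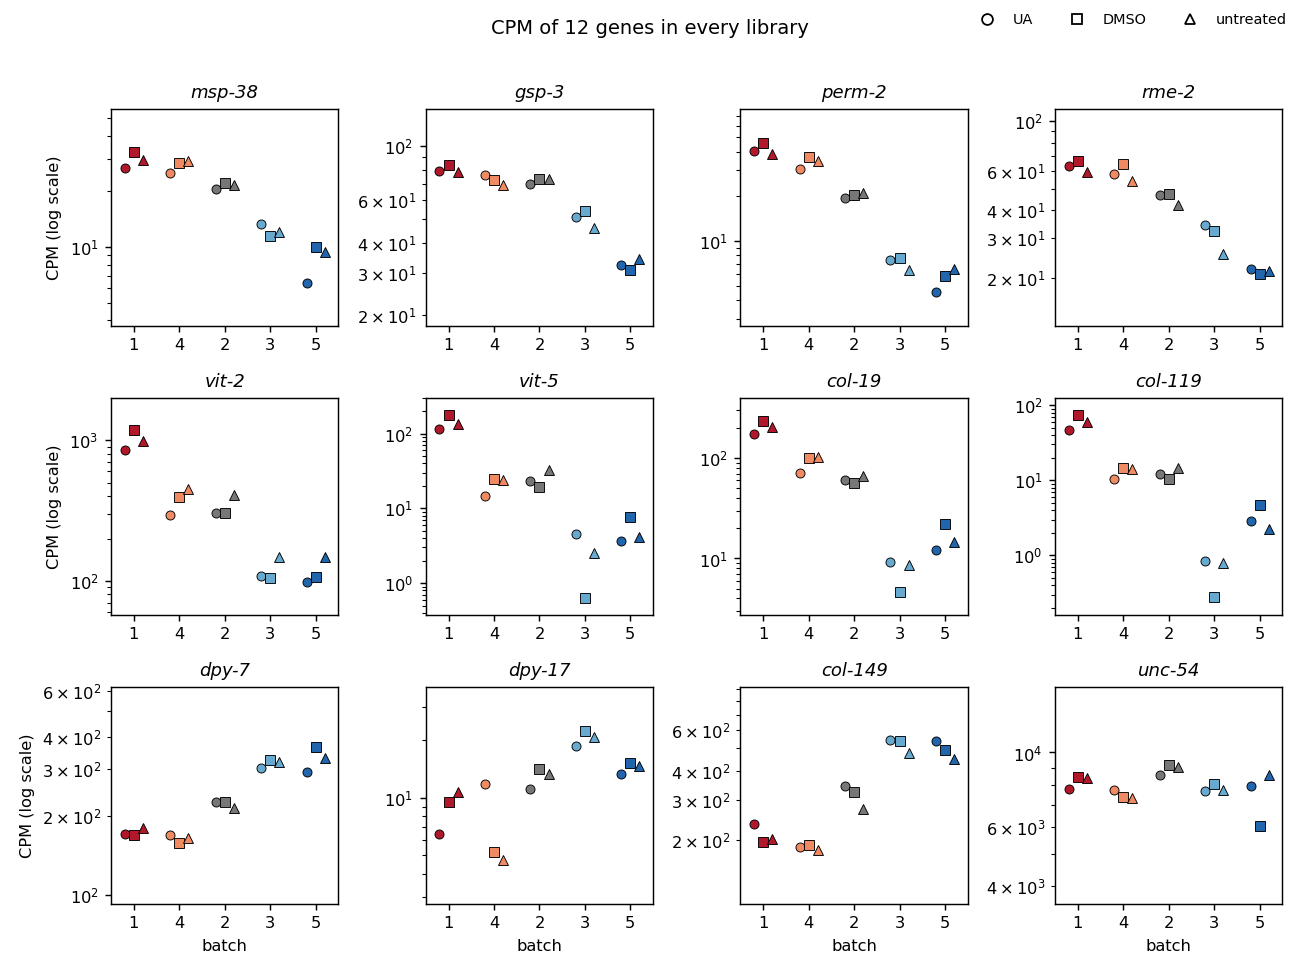
CPM of 12 genes (y axes, log scale) in each library, by batch (x axes) and treatment (symbols). In msp-38, perm-2, rme-2, vit-2, vit-5, col-19 and col-119 every library of batches 1 and 4 is above every library of batches 3 and 5, in dpy-7, dpy-17 and col-149 every one is below, and the body wall muscle myosin gene unc-54 overlaps.

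Cuticle collagens held most of the largest differences. Of 115 tested col genes 53 were called higher and 7 lower, with a median of 0.88, and 21 of the 38 genes at least 8-fold higher were col genes. The largest of all was col-119, on chromosome IV from 8978926 to 8979795, at 10.4, 30.8 and 73.5 CPM in batches 1 and 4, against 0.274, 1.55 and 4.62 CPM in batches 3 and 5 (log2 difference 4.25). The adult cuticle collagen gene col-19, on chromosome X from 421707 to 422691, had 70.7, 139 and 234 CPM in batches 1 and 4, against 4.67, 10.7 and 22.1 CPM in batches 3 and 5 (log2 difference 3.66). Neither gene overlapped between the sets, and both were highest in batch 1, at 60.1 and 204 CPM, against 13.1 and 91.3 CPM in batch 4.

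The col differences fell into 2 blocks with a gap between 2.05 (col-70) and 2.86 (col-184). The 24 genes above the gap, col-7, col-8, col-62, col-81, col-129, col-137, col-139, col-140 and col-178 among them, were all highest in batch 1, and by mean log2 CPM 16 of the 24 were lowest in batch 3 and 8 in batch 5. Their median difference of batch 1 minus batch 4 was 0.97 and of batch 3 minus batch 5 was -0.70. For the 29 called col genes below the gap these values were 0.04 and 0.07. As medians of signed differences, they do not show how far single genes differed within the sets. The block below the gap included col-12, which with 172, 224 and 258 CPM in batches 1 and 4, against 56.5, 70.6 and 94.9 CPM in batches 3 and 5, differed by 1.61. This division was seen in the values and not set beforehand.

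The 7 lower col genes were led by col-149 on chromosome V from 10291701 to 10292869, with 181, 193 and 235 CPM in batches 1 and 4, against 448, 514 and 542 CPM in batches 3 and 5 (log2 difference -1.35). Then came col-176 (-1.17) and col-98 (-1.08). In all of them every library of batches 1 and 4 was below every library of batches 3 and 5. A count on col-149 could include reads of B0024.15 on the opposite strand.

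The 6 furrow collagens (dpy-2, dpy-3, dpy-7, dpy-8, dpy-9 and dpy-10), which form the circumferential furrows and set body shape, were lower in batches 1 and 4. All 6 lay below without overlap, between -0.93 and -1.03 with a median of -0.98, and 2 of them were called. The fold limit cut through the list, with dpy-9 at -1.01 inside and dpy-10 at -0.99 outside. The gene dpy-7 had 157, 168 and 179 CPM in batches 1 and 4, against 294, 322 and 364 CPM in batches 3 and 5. For dpy-3 the libraries had 96.1, 110.0 and 126 CPM in batches 1 and 4, against 204, 227 and 243 CPM in batches 3 and 5. All 6 genes were highest in batch 5, and leaving out any batch or library kept the median between -1.04 and -0.92, with 0 to 4 genes called.

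The other body-shape collagens had no common direction. Among 12 tested genes, dpy-17 was called lower (-1.17), dpy-4 (0.61) and dpy-13 (0.56) lay above without overlap, and sqt-1, sqt-2, sqt-3 and rol-6 differed by less than 0.1 in size. In dpy-17 the UA library of batch 4, at 11.9 CPM, stood apart from the DMSO and untreated libraries of its batch, which averaged with it to 7.25 ± 4.0 CPM (SD, n = 3). The blister collagen gene bli-1, of the struts in the adult cuticle, lay below without overlap, at 485, 557 and 580.1 CPM in batches 1 and 4, against 583, 784 and 953 CPM in batches 3 and 5 (log2 difference -0.52). Unlike the furrow collagens, 8 of the 12 were highest in batch 2 and 4 in batch 3.

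**Figure D3:**
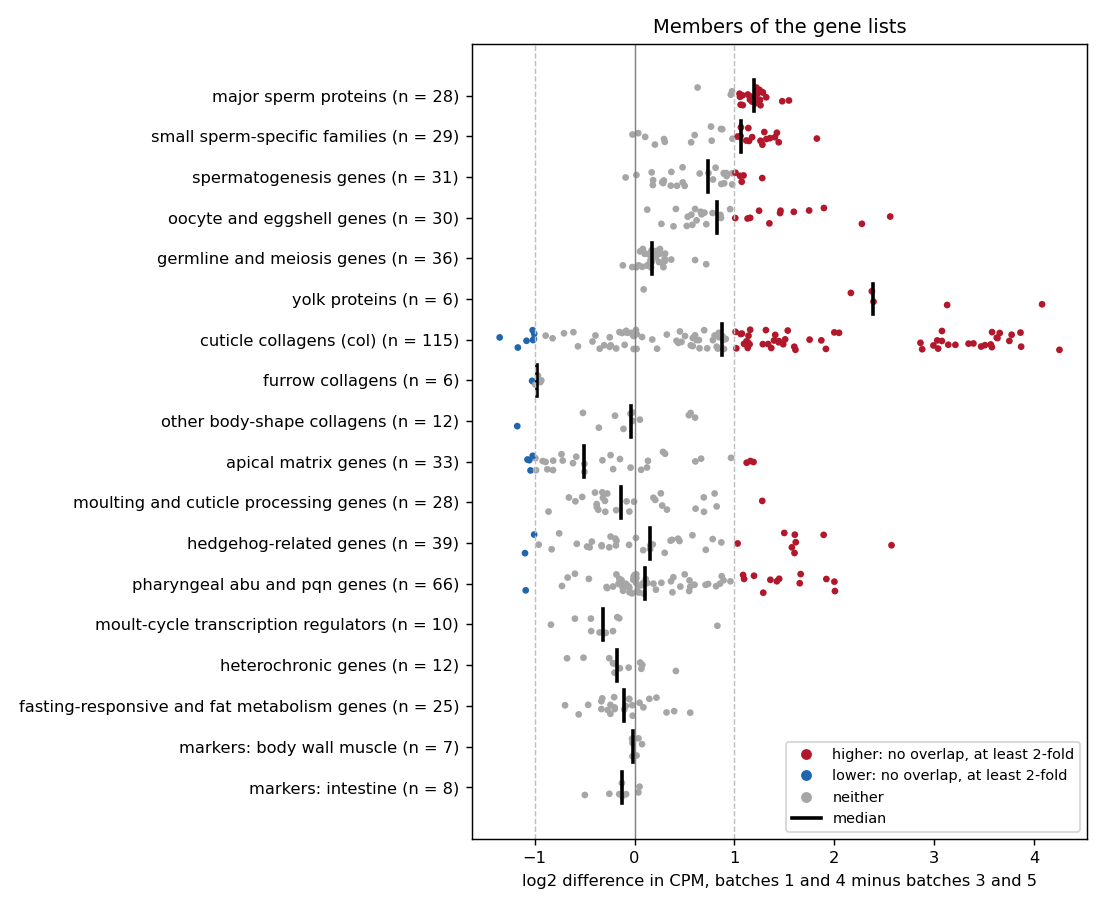
Difference in mean log2 CPM, batches 1 and 4 minus batches 3 and 5 (x axis), for each tested member of 18 gene lists (rows), with black bars at list medians and dashed lines at 2-fold. Yolk genes and part of the col genes lie farthest to the right, the furrow collagens cluster near -1, and the body wall muscle markers lie at 0.

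Apical matrix genes, whose products form the transient coat under which a new cuticle is built, included called genes in both directions. Of 33 tested, 4 were called lower and 3 higher, and the median was -0.50. Without overlap, 16 lay below and 7 above, against 8.41% and 15.9% of all tested genes. The lower genes were fbn-1, let-653, sym-1 and cutl-6. Fibrillin-like fbn-1 had 197, 213 and 229 CPM in batches 1 and 4, against 410.3, 443 and 497 CPM in batches 3 and 5 (log2 difference -1.07), and its count could include upp-1 on the opposite strand. The matrix proteins noah-1 (-0.92), noah-2 (-0.87) and lpr-3 (-0.99) lay below without being called. The higher genes were all of the cuticlin-like family, cutl-4, cutl-5 and cutl-12, at 1.12 to 1.19.

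Moulting and cuticle processing genes went both ways as well, with a median of -0.13. Of 28 tested, 11 lay below and 7 above without overlap, against 8.41% and 15.9% of all tested genes. The only called gene, the astacin protease gene nas-7, had 36.3, 40.8 and 42.2 CPM in batches 1 and 4, against 12.8, 16.7 and 20.8 CPM in batches 3 and 5 (log2 difference 1.28). Protease inhibitor gene mlt-11 lay below at -0.86. The moulting gene mlt-10 overlapped, with 415, 438 and 456 CPM in batches 1 and 4 and 291, 405 and 466 CPM in batches 3 and 5, and was highest in batch 2.

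Hedgehog-related genes, secreted proteins of epidermal and other cells, numbered 39 tested, with 8 called higher and 2 lower. The highest were grl-27 (2.57) and wrt-8 (1.89), and the lower were wrt-10 (-1.10) and grd-3 (-1.0). In wrt-8 the libraries had 10.8, 15.5 and 32.5 CPM in batches 1 and 4, against 3.43, 4.2 and 6.26 CPM in batches 3 and 5. Of 66 tested abu and pqn genes, many of which encode glutamine- and asparagine-rich proteins of the pharyngeal cuticle, 12 were called higher and 1 lower. Their leading genes, pqn-2 (2.01) and abu-4 (2.0), reached no more than 10.1 and 4.56 CPM in any library of batches 1 and 4. The gene abu-4 was under 1 CPM in every library of batches 3 and 5 and passed the filter only through the other libraries. Among C-type lectins (6 higher of 104), transthyretin-related genes (2 higher of 49) and patched-related genes (1 higher of 24) the share called was near the 4.59% of all tested genes, so these counts are no result about the families. Their largest differences were those of clec-229 (2.5), clec-87 (1.87), ttr-14 (2.21), ttr-34 (1.61) and ptr-23 (1.13). Of 14 epidermal antimicrobial peptide genes 2 were called higher, nlp-25 (1.67) and nlp-34 (1.46), and no lysozyme gene of 12 was called.

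Transcription regulators of the moult cycle showed small differences. None of 10 was called, and the median was -0.32. Without overlap, 5 lay below and 1 above, against 8.41% and 15.9% of all tested genes. The nuclear receptor nhr-23, which drives larval moults, had 73.8, 79.3 and 86.0 CPM in batches 1 and 4, against 92.4, 102 and 107 CPM in batches 3 and 5 (log2 difference -0.35). The largest differences were in nhr-91 (-0.84) and bed-3 (0.83). The oscillating gene lin-42 overlapped, at 268, 286 and 306 CPM in batches 1 and 4 and 276, 333 and 408 CPM in batches 3 and 5. Of 12 heterochronic genes, which time larval development, lin-29 (-0.51), its cofactor mab-10 (-0.68) and ain-1 (-0.22) lay below without overlap, and none was called. The libraries had 45.2, 49 and 51.1 CPM of lin-29 in batches 1 and 4, against 65.1, 69.6 and 75.9 CPM in batches 3 and 5.

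Genes that respond to fasting or act in fat metabolism showed no called difference. Of 25 tested, 23 overlapped between the sets and the median was -0.10. The fasting-induced acyl-CoA synthetase gene acs-2 had 58.5, 122 and 194 CPM in batches 1 and 4 and 103, 134 and 189.8 CPM in batches 3 and 5. The desaturase gene fat-7, which falls on fasting in adults, had 83.6, 109 and 137 CPM in batches 1 and 4 and 113, 131 and 164 CPM in batches 3 and 5. In both genes libraries within a batch spanned more than the difference between the sets. The peptide transporter gene pept-1 was 1 of 2 members below without overlap (-0.33). The share below was near the 8.41% of all tested genes, so this count is no result about the list. Cytosolic ribosomal protein genes, 78 tested, had a median of -0.14 with none called, and 66 of them were highest in batch 2.

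Markers of the main tissues gave a measure of makeup. The 7 body wall muscle genes differed by -0.02 to 0.08 and all overlapped, with 7333, 7759 and 8469 CPM of unc-54 in batches 1 and 4 and 6034, 7839 and 8562 CPM in batches 3 and 5. Intestinal markers had a median of -0.12 over 8 genes, 3 of them below without overlap. Pharyngeal markers had a median of -0.28 over 6 genes and neuronal markers a median of -0.14 over 8 genes, with 3 and 2 below. Over all tested genes 8.41% lay below without overlap. No intestinal, pharyngeal or neuronal marker was called. Summed intestinal markers ran between 5276 and 5846 CPM in batches 1 and 4, against 5470 and 6532 CPM in batches 3 and 5. Summed neuronal markers ran between 385 and 419 CPM in batches 1 and 4, against 406 and 479 CPM in batches 3 and 5. The part of tissue makeup in the differences of the gene groups was not tested. The 6 epidermal markers went both ways, with a median of 0.01: col-12 (1.61) was called higher, elt-3 (-0.53) and sta-2 (-0.61) lay below without overlap, and lin-26, che-14 and rol-6 overlapped. Their part in the collagen differences was not tested.

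Batches of the same set also differed. In all 28 msp genes and 30 of 31 spermatogenesis genes batch 3 was above batch 5, with medians of 0.64 and 0.49. For 28 of 30 oocyte and eggshell genes batch 3 was above as well (median 0.28). The 6 furrow collagens went the other way, each higher in batch 5 (median of batch 3 minus batch 5 -0.09). Batch 5 was therefore the lower of the pair for sperm and oocyte genes, and batch 3 for most of the col genes with the largest differences. Between batches 1 and 4 the yolk genes differed most, with a median of 1.43 and batch 1 above for all 6, while the msp median was 0.10 and that of the furrow collagens was 0.09.

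**Figure D4:**
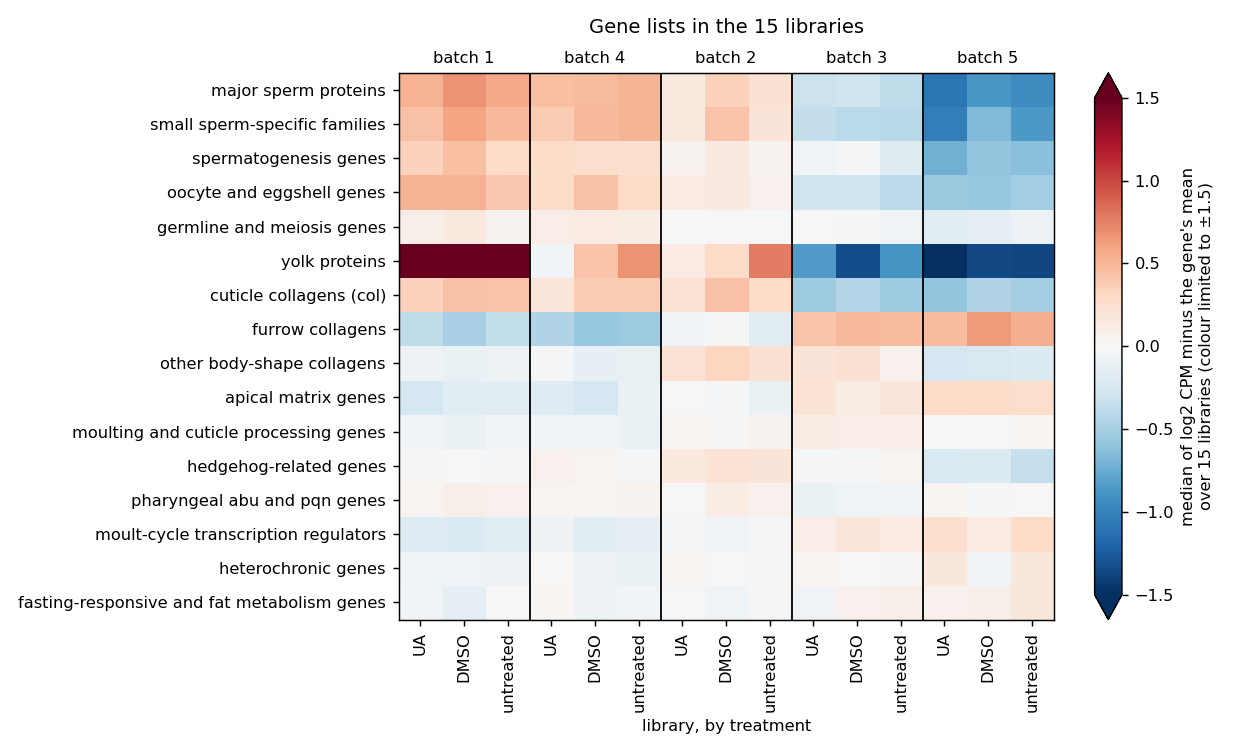
Median over list members of log2 CPM minus each gene's mean over 15 libraries (colour, limited to ±1.5), for 16 gene lists (rows) in each library (columns, by batch and treatment). Sperm lists are lowest in batch 5, yolk genes highest in batch 1, and furrow collagens highest in batches 3 and 5.

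Batch 2, which the choice of sets did not use for its groups, lay between them for most called genes. On a scale where 0 is the mean of batches 3 and 5 and 1 the mean of batches 1 and 4 in log2 CPM, batch 2 had a median position of 0.68 over the 644 higher genes and 627 of them were between. Over the 47 lower genes the median was 0.60 and all 47 were between. By list, the median position of the called genes was 0.75 for msp genes, 0.67 for oocyte and eggshell genes, 0.72 for yolk genes, 0.73 for col genes and 0.53 for the furrow collagens. The furrow value rests on only 2 called genes, at 0.47 and 0.59. The most frequent order of the batches among the higher genes was 1, 4, 2, 3, 5 from high to low, in 290 of 644. Batches 1, 3, 4 and 5 were chosen from the ends of the first component, so these values are a description.

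**Figure D5:**
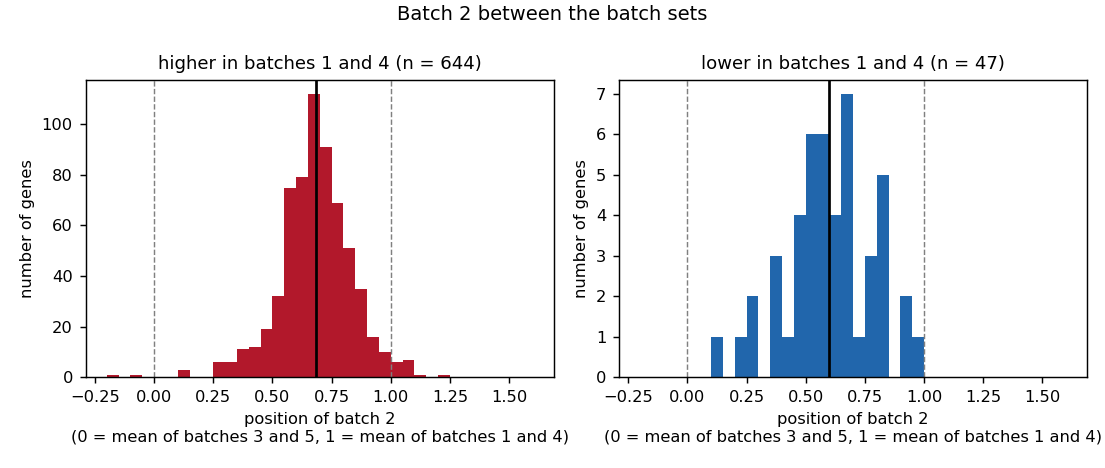
Number of genes (y axes) by the position of batch 2 between the mean of batches 3 and 5 (0) and the mean of batches 1 and 4 (1) on the log2 CPM scale (x axes), for the 644 higher and 47 lower genes. Black lines mark the medians, 0.68 and 0.60.

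Called genes were found on every nuclear chromosome. The share of tested genes that was higher in batches 1 and 4 ran between 3.02% on chromosome III and 6.53% on chromosome IV, with 4.70% on chromosome X, and none of 12 mitochondrial genes was called. Of the 643 higher genes with a position, 162 had another higher gene directly before or after them in the order of tested genes. No share over all tested genes stands beside this count, so it is a description. Runs of 3 or more higher genes numbered 11. The longest held 5 genes of the D1086 cosmid on chromosome V between 14074460 and 14087188, and another held nas-20, nas-21, nas-22 and col-157 on the same chromosome between 11470925 and 11485039. Exon length was taken over all annotated exons of a gene, merged where they overlap, and is not the length of a transcript. Its median was 987 bases for higher genes and 1215 bases for lower genes, against 1403 bases over all tested genes.

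The sizes of the differences were also taken within each treatment, as a description: genes called over all 12 libraries cannot overlap between the sets within a treatment, by construction. With the 2 libraries of each set per treatment, 647 genes were called higher among UA libraries, 725 among DMSO libraries and 734 among untreated libraries. The median msp difference was 1.20 with UA, 1.17 with DMSO and 1.21 untreated, and the median furrow collagen difference was -0.88 with UA, -1.08 with DMSO and -0.97 untreated. For col-19 the difference was 3.38 with UA, 3.90 with DMSO and 3.69 untreated.

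Whether a treatment acted differently in the sets was tested for every gene with edgeR's quasi-likelihood test and a term for the interaction of set and treatment. This test is on differences within batches, which the choice of sets did not use directly. For UA minus DMSO, 0 of 14037 genes (0%) passed an adjusted p of 0.02, the lowest adjusted p was 0.703, and 976 genes had an unadjusted p under 0.05. DESeq2 called 0 as well, with 227 genes at an unadjusted p under 0.05. For DMSO minus untreated, edgeR called 0 genes (0%), with 371 at an unadjusted p under 0.05 and a lowest adjusted p of 1.0, and DESeq2 called 0, with 33. With 4 batches, a p that misses the threshold does not show that the treatments acted alike. The standard error of the interaction had a median of 0.141 on the log2 scale for UA minus DMSO and of 0.138 for DMSO minus untreated.

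The smallest p for UA minus DMSO belonged to F44G3.2, with a difference of 0.89 in batches 1 and 4 and -0.10 in batches 3 and 5 (interaction 0.99 ± 0.19 (SE), edgeR adjusted p = 0.703). Next was cth-1, which encodes a cystathionine gamma-lyase, with 0.40 in batches 1 and 4 and -0.20 in batches 3 and 5 (interaction 0.60 ± 0.12 (SE), edgeR adjusted p = 0.703). Neither passed the test, and for each gene both batches of a set had the sign given for that set. For DMSO minus untreated the smallest p belonged to C34F6.11 and vit-2. In vit-2 the difference was 0.02 in batches 1 and 4 and -0.47 in batches 3 and 5 (interaction 0.49 ± 0.13 (SE), edgeR adjusted p = 1.0), and for UA minus DMSO it was -0.44 in batches 1 and 4 and -0.05 in batches 3 and 5 (edgeR adjusted p = 0.703). The first of these values averaged opposite signs: DMSO minus untreated for vit-2 was 0.24 in batch 1 and -0.18 in batch 4, against -0.49 in batch 3 and -0.46 in batch 5, with -0.42 in batch 2. Both comparisons share the DMSO libraries. The UA library was the lowest of its batch for vit-2 in batches 1, 4 and 5, but not in batches 2 and 3. Neither difference between the sets passed the test.

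The count for UA minus DMSO depended on libraries of batches 1 and 3. Without the UA library of batch 1, 42 genes passed the adjusted p of 0.02 in edgeR's test, without all of batch 1 there were 17 genes, and without the UA library of batch 3 there were 3 (anc-1, his-59 and his-62). In each of these fits 1 batch stood alone for an arm: batch 4 for UA in batches 1 and 4 in the first, batch 4 for its whole set in the next, and batch 5 for UA in batches 3 and 5 in the last. A lone library was assumed to vary like the other groups. Genes called without the UA library of batch 1 included acs-2, for which UA minus DMSO was -0.71 in batch 1 and 0.87 in batch 4, against -0.40 in batch 3 and -0.25 in batch 5, with -0.77 in batch 2. Batch 4 alone had more acs-2 with UA than with DMSO.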

How the data were processed

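The authors deposited raw counts of reads per gene, made with featureCounts 1.5.2 after STAR 2.5.2b alignment to WBcel235, per the labels and the study's methods. The strand setting and the handling of reads that match several genes are not given in the sources used here. The deposited counts were used as they stood.

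Genes with at least 10 counts in 1 library and at least 1 CPM in 3 libraries were kept. Differences between the sets are means of TMM-scaled log2 CPM (prior count 2). Interactions were tested with edgeR 4.0.16 (quasi-likelihood, R 4.3.3, batch as a block, Benjamini-Hochberg adjustment, threshold 0.02) and with DESeq2 1.42.0 as an alternative. The scripts were tested on simulated data.

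Same-batch libraries deviated together. Over genes, deviations from the treatment means correlated at 0.458 to 0.823 between UA and DMSO and at 0.494 to 0.844 between DMSO and untreated libraries of a batch, so the labels' batch numbers pair the samples. The study's methods call the 5 replicates of a group independent. The labels do not say what separates the batches, so p-values measure the spread between these samples.

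Genes named were the 10 largest differences in each direction among called genes with at least 10 CPM in a set, the 2 largest called members of each list, defining members, and the 2 genes with the smallest p of each interaction. Other list members stand as examples chosen after their values were seen. The sets, lists and rules were chosen with earlier results of these data known. Of 292 names listed singly, 279 were found, 9 more by gene ID, and 4 were not matched. Gene positions and overlaps came from the annotation table of the same build.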

Additional observations from a re-analysis of the deposited data

Results flagged for a closer look

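In 46 groups of 6 values, the gap of the highest or lowest library to its nearest neighbour, divided by the range, was set against Dixon's critical value, which chance passes in about 1 in 20 groups. Of these, 2 passed, both in the UA library of batch 5. Its total of 12485842 counts stood below the next of batches 3 and 5 at 21341483 (ratio 0.768). Its D1005.2 level of 23.7 CPM stood above the next at 20.4 CPM (ratio 0.667), and D1005.2 was lower in batches 1 and 4, at 8.64 to 11.7 CPM, than in batches 3 and 5 (log2 difference -1.07). The library's low depth moves with its values here, and its part in them was not tested beyond leaving it out and thinning the counts.

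In batch 2, which entered no comparison between the sets, 191 genes (1.36% of those tested) lay above all 12 other libraries and 171 (1.22%) below. At least 2-fold above were fat-5 (1.04 on the log2 scale) and clec-239 (1.0). The desaturase gene fat-5 had 60.2 to 82.4 CPM in batch 2, against 24 to 56.3 CPM in batches 1 and 4 and 24.4 to 58.1 CPM in batches 3 and 5. The lectin gene clec-239 had 3.56 to 3.79 CPM in batch 2, against at most 2.92 CPM elsewhere. At least 2-fold below were 6 genes. The heat shock gene hsp-16.2 was the farthest below, with a mean of 1.36 CPM in batch 2 and a difference of -1.9 from the other 12. The rest were F44E5.5 (-1.51), srr-6 (-1.45), F44E5.4 (-1.45), hsp-70 (-1.19) and R08F11.4 (-1.02).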

How the results depend on the processing

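The 644 higher and 47 lower genes became 1483 and 358 at a fold of at least 1.5, where 80.6% of calls were higher against 93.2% at 2-fold, and 112 and 0 at a fold of at least 4. DMSO libraries alone gave 93 lower genes. Leaving out a batch or library gave 461 to 1087 higher genes (lowest without batch 5, highest without batch 3) and 32 to 132 lower genes (lowest without the DMSO library of batch 5, highest without batch 3). Of the 461 genes without batch 5, 370 were among the 644. Other scaling, prior count, filters and thinning to the smallest library kept both counts within 1.5 times. Scaling moved the median of all genes by less than 0.1. Of the differences of named genes under alternatives, 3242 moved by less than the SD over the libraries of a set, and 139 moved by more. A change of sign was counted only for called genes, and 0 reversed. For named genes that were not called, changes of sign were not counted. For UA minus DMSO, leaving out a batch or library gave 0 to 42 genes (42 without the UA library of batch 1, 17 without batch 1, 3 without the UA library of batch 3, the cause was not tested). DMSO minus untreated stayed at 0. With no replicate block both interactions called 0 genes, as with the paired fit, with 278 and 101 at an unadjusted p under 0.05 against 976 and 371. Depth limits genes under about 1 CPM, 79 of the higher ones in batches 3 and 5, and 2 batches against 2 limit every statement.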

Other observations

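The called genes named next were singled out after their values were seen, and stand for no larger group. The sperm-specific genes ssq-1, ssq-2, ssq-3 and ssq-4 differed by 1.25, 1.13, 1.1 and 1.31 on the log2 scale, and ssq-4 had 142 to 174 CPM in batches 1 and 4, against 44.9 to 93.9 CPM in batches 3 and 5. Maternal transcripts included puf-3, with 38.1 to 45.5 CPM in batches 1 and 4, against 13 to 20.03 CPM in batches 3 and 5 (1.47), and the germ plasm genes nos-2 (2.78) and meg-1 (2.02), both under 3 CPM in every library. The nos-2 difference depends on the prior count, since 1 of the libraries of batches 3 and 5 was at 0.

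Epidermal and cuticle genes outside the lists included the collagen gene rol-1, with 1218 to 1432 CPM in batches 1 and 4, against 334 to 832 CPM in batches 3 and 5 (1.34), and mup-4, which links muscle to cuticle through the epidermis, with 579 to 634 CPM in batches 1 and 4, against 223 to 277 CPM in batches 3 and 5 (1.33). Of 29 tested astacin protease genes (nas), 10 were called higher, nas-7 of the moulting list among them, against 4.59% of all tested genes. The largest difference was that of nas-20, with 2.1 to 5.74 CPM in batches 1 and 4, against 0.183 to 0.55 CPM in batches 3 and 5, which passed the filter only through libraries of the other batches. The same held for nas-21, with 0.496 to 1.15 CPM in batches 1 and 4, against at most 0.283 CPM in batches 3 and 5. The count over the family is therefore a description. The chitinase gene cht-3 had 9.59 to 16.3 CPM in batches 1 and 4, against 1.25 to 2.92 CPM in batches 3 and 5 (2.48). The largest difference among called genes outside the lists with a mean above 500 CPM in batches 1 and 4 was that of Y47D7A.15, a gene named only by its sequence, with 629 to 801 CPM in batches 1 and 4, against 71.1 to 177 CPM in batches 3 and 5 (2.65). Among the lower genes, the nuclear receptor gene nhr-235 had the largest difference (-1.71), with 0.901 to 2.68 CPM in batches 1 and 4, against 3.8 to 6.77 CPM in batches 3 and 5.

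Of the 691 called genes, 408 of the 644 higher and 22 of the 47 lower were named only by sequence, and 151 and 17 belonged to a list.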
